A study of Rattus norvegicus with 20 samples.

Results

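The miR-23/27/24 family is made by a pair of clusters of microRNA (miRNA) genes, and 7 of their mature products were described here of the 617 miRNAs with reads in the series. They are miR-23a-3p, miR-27a-3p and miR-24-2-5p of the miR-23a cluster, miR-23b-3p, miR-27b-3p and miR-24-1-5p of the miR-23b cluster, and miR-24-3p, which both clusters encode. They were chosen by name, with earlier results of these data known. All 7 passed the filter of at least 10 reads in at least 5 libraries that left 500 miRNAs to test. The reads came from small RNA in the adBNST, the anterodorsal division of a nucleus of the extended amygdala called the bed nucleus of the stria terminalis, in 20 Sprague-Dawley rats. The 4 groups of 5 rats were group housed (GH) males, socially isolated (SI) males, GH females and SI females. Weaning was on postnatal day 21, after which the rats lived for 6 weeks either alone (SI) or with same-sex littermates, 3 to a cage (GH), and all were tested in the elevated plus maze at 9 weeks of age before the brain was taken. Each library was made from the bilateral punches of 1 rat, and the females were picked for RNA quality and for a spread of estradiol levels.

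A miRNA cluster is transcribed as 1 long primary transcript, which is cut into hairpins and then into mature strands from the 5′ arm (5p) or the 3′ arm (3p). The mature strand guides a silencing complex to messenger RNAs that pair with its seed, the bases 2 to 8 from its 5′ end. These clusters are known mostly from blood vessels, heart, muscle and immune cells, and miR-23 has also been described in astrocytes. Whether products of 1 cluster move together is a question here because miR-23b-3p was the reference miRNA of the study's PCR assays. It was picked there because its level was steady across the groups of these same libraries. The paper also reported a steady level of it by PCR, measured against the small RNA RNU6B.

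The mature sequences are printed because the family falls into 4 seeds and because the paralogs are nearly the same molecule. They are the RefSeq sequences of assembly GRCr8, written 5′ to 3′ with the seed in capitals.
rno-miR-23a-3p: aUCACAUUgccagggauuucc
rno-miR-23b-3p: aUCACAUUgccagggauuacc
rno-miR-27a-3p: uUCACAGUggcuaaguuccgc
rno-miR-27b-3p: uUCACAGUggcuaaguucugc
rno-miR-24-3p: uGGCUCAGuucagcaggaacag
rno-miR-24-2-5p: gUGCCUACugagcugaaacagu
rno-miR-24-1-5p: gUGCCUACugagcugauaucag
Counting from 1 at the 5′ end and giving the base of the first miRNA before that of the other, miR-23a-3p and miR-23b-3p differed only by U19A, and miR-27a-3p and miR-27b-3p only by C19U. The 5p strands of miR-24 differed at 5 of 22 positions, from position 17 on. No paralog pair differed in its seed. The seeds of miR-23 and miR-27 differed from each other at 1 base.

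In GRCr8 the miR-23b cluster lies on the minus strand of chromosome 17, where the mature sequences run from miR-24-3p at chr17:1818672-1818693 to miR-23b-3p at chr17:1819405-1819425. RefSeq places this stretch within the span of the protein-coding gene Aopep, an aminopeptidase. The miR-23a cluster lies on the minus strand of chromosome 19, from miR-24-3p at chr19:40859481-40859502 to miR-23a-3p at chr19:40859778-40859798, and the RefSeq table has no other gene that spans it. All 258653 reads of miR-24-3p were listed under the precursor mir-24-2, although both precursors hold the same mature sequence. Its reads therefore cannot be divided between the clusters.

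Library depth ran from 3428930 to 11383055 miRNA reads (median 6705043), and the 7 miRNAs took between 0.43% and 2.08% of them. Reads carry no molecular identifiers, so any counting error covers reads and not molecules. The female SI rat I16F stood apart, with the lowest share of all 20 libraries, and results that rest on it are given with and without it. A pair of SI libraries, both numbered I17, carry one sex in their labels and the other in the names of their files. They were grouped by label here, and the exchange was run as well. The neuronal markers miR-124-3p, miR-9a-5p and miR-128-3p together had between 68485 and 178543.5 CPM in every library.

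The levels of the 7 miRNAs over the 20 rats are given as normalized CPM, the reads of a miRNA as a part of a fixed library total after the TMM scaling of edgeR. miR-27b-3p was the most abundant, with 3841 ± 962 (SD, n = 20), followed by miR-23b-3p with 2779 ± 303. Next came miR-24-3p with 2090 ± 1213, miR-23a-3p with 1901 ± 358 and miR-27a-3p with 756 ± 252. The 5p strands of miR-24 were low, with 100.1 ± 46.7 for miR-24-2-5p and 10.4 ± 7.95 for miR-24-1-5p. Over all rats the ranges of miR-23b-3p, miR-24-3p and miR-23a-3p overlapped. With all reads counted, both 5p strands lay below every 3p strand in all rats (at most 187 for miR-24-2-5p, at least 207 for miR-27a-3p). However, 74.8% of the reads of miR-27a-3p were also counted for miR-27b-3p, so its level holds for that counting only. With only the reads of a single miRNA, I17M had 588 reads of miR-24-2-5p and 452 of miR-27a-3p. In every other rat miR-27a-3p remained the higher of this pair. Read counts of miRNAs also carry the bias of ligation and amplification, so levels of different strands are not ratios of molecules.

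The members of the family differed widely in how steady they were within groups. On the log2 scale of normalized counts, the SD within groups was 0.124 for miR-23b-3p, the lowest of the 500 miRNAs. It was 0.209 for miR-23a-3p (rank 7), 0.385 for miR-27b-3p (rank 84) and 0.445 for miR-27a-3p (rank 124). It was 0.604 for miR-24-3p (rank 209), 0.692 for miR-24-2-5p (rank 238) and 2.24 for miR-24-1-5p (rank 439). With all rats included, the miR-23 strands were thus among the steadiest miRNAs of these libraries, and their cluster mates ranked lower. The contrast of miR-27b-3p with miR-23a-3p came from the SI females, the group of I16F, with SDs of 0.724 and 0.210. Elsewhere the SD of miR-27b-3p was 0.127 in GH males, 0.204 in SI males and 0.110 in GH females. That of miR-23a-3p was 0.126, 0.231 and 0.247 in the same order. The part of I16F in the ranks was not tested. The steadiness of miR-23b-3p is a description, since the study chose it on these libraries.

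**Figure D1:**
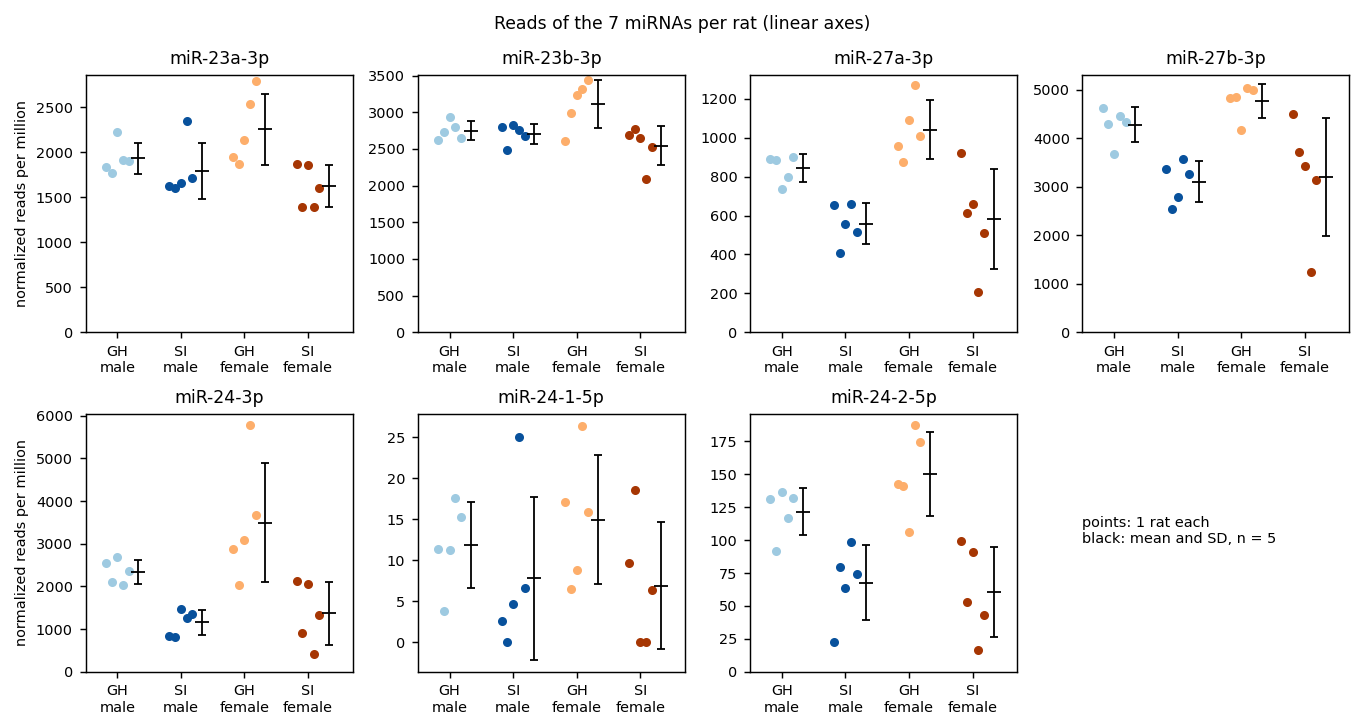
Normalized CPM (reads of a miRNA scaled to a common library total) of each of the 7 miRNAs in each rat (points) by group, with the mean and SD of 5 rats in black and a linear axis per miRNA. miR-23b-3p lay between 2090 and 3436 in all rats, while miR-24-3p ranged from 407 to 5778 and was lower in every SI male than in every GH male.

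The first question was whether housing moved the cluster products. Averaged over the sexes (10 SI against 10 GH rats), miR-24-3p, miR-24-2-5p and both miR-27 3p strands fell, while miR-24-1-5p and both miR-23 3p strands did not pass the test. By edgeR's quasi-likelihood test with Benjamini-Hochberg adjustment over 500 miRNAs, 4 of the 7 members were lower in SI rats and 0 were higher, where 17.6% of all miRNAs passed and 10.2% passed as lower. All 7 log2 fold changes were negative, with a median of -0.72, against a median of -0.005 and 252 negative values among all 500.

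miR-24-3p, the shared product of both clusters, changed the most among those that passed. In GH males it had 2541, 2102, 2688, 2034 and 2350 normalized CPM, and in SI males 848, 816.9, 1477, 1266 and 1360. In GH females it had 2885, 2042, 3097, 5778 and 3678, and in SI females 2117, 915, 2065, 407 and 1329. The groups of males did not overlap, and in females 3 of 5 SI rats lay below every GH rat. Averaged over the sexes, the log2 fold change was -1.19 (SE 0.24, adjusted p = 0.0039), which puts the SI level at 43.9% of the GH level. Without I16F it was -1.08 (adjusted p = 0.00067).

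miR-24-2-5p, the other strand of the miR-24-2 hairpin of the miR-23a cluster, moved the same way at a far lower level. It had 131, 91.9, 136.7, 117.2 and 131.8 normalized CPM in GH males, and 22.6, 79.8, 63.3, 98.8 and 74.0 in SI males. In females it had 142.7, 141.5, 106.2, 187.5 and 174.3 in GH rats, and 99.0, 53.1, 90.9, 16.5 and 42.9 in SI rats. Here it was the females whose groups did not overlap, while 1 SI male (I20M) lay among the GH males. The averaged log2 fold change was -1.08 (SE 0.27, adjusted p = 0.011), or 47.3% of the GH level, and without I16F it was -0.96 (adjusted p = 0.0053).

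The miR-27 strands fell less far. miR-27a-3p had between 739 and 899 normalized CPM in GH males (median 886) and between 408 and 657 in SI males (median 558), and these groups did not overlap. In females it had between 877 and 1271 in GH rats (median 1010) and 921, 615, 659, 207 and 508 in SI rats, of which only I10F lay among the GH values. Averaged over the sexes its log2 fold change was -0.72 (SE 0.18, adjusted p = 0.011), 60.9% of the GH level, and without I16F it was -0.61 (adjusted p = 0.0039).

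miR-27b-3p had 4624, 4289, 3668, 4463 and 4343 normalized CPM in GH males and 3359, 2542, 2794, 3573 and 3263 in SI males, again without overlap. In females it had 4829, 4852, 4173, 5027 and 4985 in GH rats and 4507, 3714, 3427, 1244 and 3138 in SI rats, so that 4 of 5 SI females lay below every GH female. The averaged log2 fold change was -0.52 (SE 0.16, adjusted p = 0.029), 69.8% of the GH level, and without I16F it was -0.42 (adjusted p = 0.011). This call was the least firm of the 4. Its adjusted p became 0.064 without the male and 0.053 without the female numbered I17, and 0.059 when the libraries were scaled by miR-23b-3p.

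The miR-23 strands did not pass. miR-23b-3p had 2623, 2731, 2940, 2796 and 2643 normalized CPM in GH males and 2799, 2481, 2824, 2756 and 2680 in SI males. These ranges overlapped, with 1 of 5 SI rats below every GH rat. In females it had 2607, 2984, 3237, 3318 and 3436 in GH rats and 2692, 2774, 2650, 2090 and 2523 in SI rats, with 2 of 5 SI rats below every GH rat. The averaged log2 fold change was -0.16 (SE 0.10, adjusted p = 0.33), or 89.7% of the GH level.

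miR-23a-3p had between 1772 and 2224 normalized CPM in GH males and between 1605 and 2352 in SI males, where 4 SI rats lay below every GH rat and I20M lay above all of them. In females it had between 1866 and 2793 in GH rats and between 1393 and 1871 in SI rats. Its averaged log2 fold change was -0.29 (SE 0.12, adjusted p = 0.10), and without I20M it was -0.37 (adjusted p = 0.042), so this 1 rat decided the call. miR-24-1-5p had only between 0 and 164 reads per library and none listed in I17M, I14F and I16F, and sequences read a single time were not listed at all. Its fold change of -0.86 had an SE of 0.82 (adjusted p = 0.52), so a fall as large as that of miR-24-2-5p could not have been detected.

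**Figure D2:**
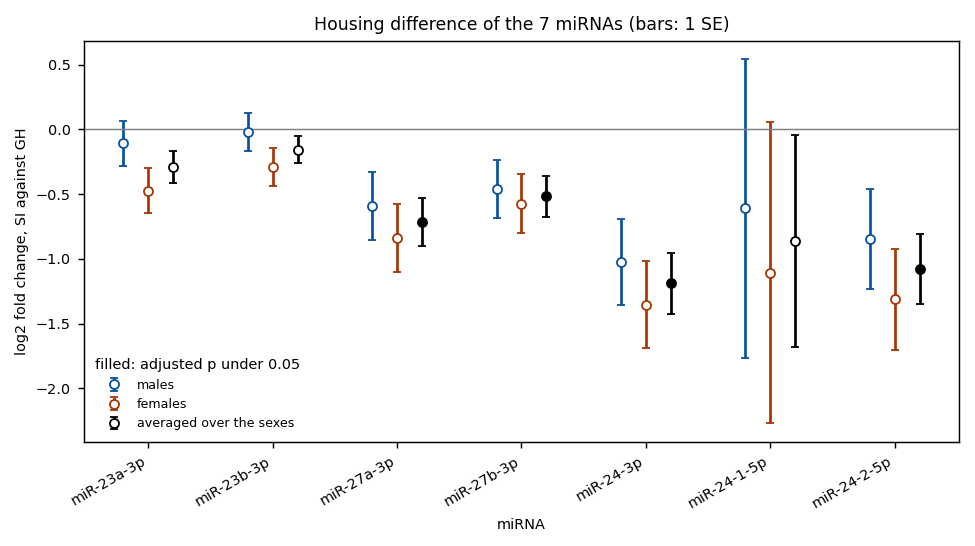
Log2 fold change of SI against GH rats for each of the 7 miRNAs, in males (blue, 5 against 5), in females (red, 5 against 5) and averaged over the sexes (black), with bars of 1 SE and filled points where the adjusted p was under 0.05. The 4 filled points are those of miR-24-3p, miR-24-2-5p, miR-27a-3p and miR-27b-3p averaged over the sexes, and the points of miR-23b-3p lie nearest to 0.

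Within a single sex none of the 7 passed. In males 0 of 7 had an adjusted p under 0.05 by edgeR's quasi-likelihood test, where 4% of the 500 miRNAs did, and 3 of 7 had an unadjusted p under 0.05, where 23% did. The 3 were miR-24-3p (log2 fold change -1.02, SE 0.33, adjusted p = 0.083), miR-24-2-5p (-0.85, SE 0.38, adjusted p = 0.19) and miR-27a-3p (-0.59, SE 0.26, adjusted p = 0.17). For 3 of 7 members (miR-24-3p, miR-27a-3p and miR-27b-3p) every SI male lay below every GH male, as was so for 9.2% of all 500. miR-23b-3p and miR-23a-3p had -0.02 (SE 0.15) and -0.11 (SE 0.17) in males.

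In females 0 of 7 passed, where 0.4% of the 500 did, and 5 of 7 had an unadjusted p under 0.05, where 20.8% did. The largest of these was -1.36 for miR-24-3p (SE 0.33, adjusted p = 0.081 by edgeR), followed by -1.31 for miR-24-2-5p (SE 0.39, adjusted p = 0.084). The others were miR-27a-3p with -0.84, miR-27b-3p with -0.57 and miR-23a-3p with -0.47. miR-23b-3p had -0.29 in females (SE 0.15, unadjusted p = 0.058 and adjusted p = 0.27 by edgeR), or 81.7% of the GH level. miR-24-1-5p had -1.11 (SE 1.16). Only for miR-24-2-5p did every SI female lie below every GH female, as was so for 1.6% of all miRNAs. The median of all 500 miRNAs was itself -0.13 in females, against -0.84 for the members.

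These counts within a sex moved with the samples and the tool. Without I16F, a female whose group shares the estimate of the spread with males in the model, 3 members passed in males (miR-24-3p, miR-27a-3p and miR-27b-3p, with 73 miRNAs passing in all), and the same number passed when males were fitted alone. In females 3 passed without I10F (with 63 in all), namely miR-24-3p, miR-24-2-5p and miR-27a-3p, and 1, miR-24-3p, without G13F or without I14F. DESeq2's Wald test called 1 member in males and 4 in females, where 19.8% and 17.9% of the miRNAs given an adjusted p were called.

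The housing difference was not shown to differ between the sexes. The interaction of housing and sex passed for 0 of 7 members and for 0.4% of all miRNAs by edgeR's quasi-likelihood test, and 0 members had an unadjusted p under 0.05. Its values ran from -0.50 (SE 1.63, miR-24-1-5p) to -0.11 (SE 0.32, miR-27b-3p). Among the GH controls, females and males differed for 0 of 7 members and for 0% of all miRNAs at the same threshold, with 0 members and 12 of 500 miRNAs at an unadjusted p under 0.05. By DESeq2's Wald test 0 members and 5 miRNAs passed. The 7 values were all above 0 (higher in females), from 0.16 for miR-27b-3p to 0.58 for miR-24-3p (SE 0.33). Of all 500 miRNAs 240 were below 0. The 7 values are not independent, since the paralogs share reads.

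The other strands of the miR-23 and miR-27 hairpins, at far lower levels, were read as well. miR-23a-5p, miR-23b-5p, miR-27a-5p and miR-27b-5p had at most 191 reads in a library, and 0 of 4 passed in the averaged comparison. Their log2 fold changes were 0.83 (SE 0.44), 0.07 (SE 1.06), -0.15 (SE 1.18) and 0.02 (SE 0.54), and the errors of miR-23b-5p and miR-27a-5p were larger than the changes of both miR-27 3p strands.

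Some markers of vessel cells moved in the same direction as the miR-24 and miR-27 strands. Punches of tissue cannot tell fewer cells of a type from less RNA per cell. The endothelial markers miR-126a-3p and miR-126a-5p together had between 1003 and 1237 CPM (not scaled by TMM) in GH males and between 261 and 647 in SI males. In females they had between 913 and 2697 in GH rats and between 66.5 and 1135 in SI rats. In males miR-126a-5p alone overlapped between the groups, with 55.0 to 109 normalized CPM in GH and 16.6 to 96.1 in SI rats. Of these markers 1 of 2 passed as lower in the averaged comparison (miR-126a-3p, log2 fold change -1.11, SE 0.28, adjusted p = 0.011 by edgeR). The mural cell markers miR-143-3p and miR-145-5p together went from between 9499 and 16291 in GH males to between 4094 and 6300 in SI males. In females the sum went from between 12048 and 23834 to between 1707 and 14257. In the averaged comparison 1 of 2 was lower (miR-143-3p, -0.99, SE 0.23, adjusted p = 0.0059 by edgeR). The sum was mostly miR-143-3p. In males miR-145-5p alone overlapped, with 95.7 to 192 normalized CPM (median 97.5) in GH and 85.6 to 130 (median 110) in SI rats.

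A lower marker in the averaged comparison was not particular to the vessel lists. Of the oligodendrocyte markers 1 of 2 was lower as well (miR-338-3p). The median log2 fold change of that list was -0.72, against -0.87 for endothelium and -0.81 for mural cells. Of the red blood cell markers 1 of 3 was higher (miR-486, 0.92, SE 0.19). For neurons, for microglia and leukocytes, and for the 3 testable of 5 markers of choroid plexus and ependyma, 0 of 3 passed. The medians of these lists were 0.09, -0.76 and 0.66. In I16F, where most members were lowest, miR-126a-3p (79.9) and miR-143-3p (2032) were at their lowest of any rat too, as normalized CPM. The neuronal miR-124-3p (8295) and miR-9a-5p (40577) were lowest there as well, but miR-128-3p (33370) was not. The red blood cell marker miR-486 (4036) was at its highest, while miR-451-5p and miR-144-3p of that list had 0. The oligodendrocyte marker miR-219a-2-3p (6828) was also at its highest, while miR-338-3p had 0. The part of these cells in the values of the family was not tested.

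The next question was whether the mates follow miR-23b-3p from rat to rat. For each rat the deviation from its group's mean on the log2 scale was taken, which removes housing and sex. All 6 mates had a positive correlation with miR-23b-3p over the 20 rats, but 0 of 6 passed after adjustment over 499 miRNAs, where 0% of all passed. Pearson's r was 0.69 for miR-27a-3p, 0.63 for miR-24-3p, 0.60 for miR-27b-3p, 0.56 for miR-23a-3p, 0.47 for miR-24-1-5p and 0.40 for miR-24-2-5p. The permutation p, two-sided, ran from 0.0092 (miR-27a-3p, adjusted 0.14) to 0.14 (miR-24-2-5p, adjusted 0.32), with 4 of 6 under 0.05 before adjustment, where 24% of all 499 miRNAs were. Spearman's rho ran from 0.34 for miR-24-2-5p to 0.57 for miR-23a-3p, with permutation p-values between 0.022 and 0.17 and adjusted values between 0.15 and 0.41.

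The mates did not lead the miRNAs most like miR-23b-3p. By r they ranked from 13 (miR-27a-3p) to 132 (miR-24-2-5p) of 499, in a field whose median r was 0.15. The highest were miR-325-3p (0.77), miR-497-5p (0.76) and the endothelial miR-126a-3p (0.73), all with an adjusted permutation p of 0.14. The strand miR-23b-5p, cut from the same hairpin as miR-23b-3p, had an r of 0.35 and ranked 158.

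The relation rested largely on a few rats. miR-23b-3p itself varied only from -0.28 (I16F) to 0.15 (G17F) around its group means, a narrow range to follow, and miR-23a-3p lay on the same side of its mean as miR-23b-3p in 15 of 20 rats but miR-27b-3p in only 10. I16F had the lowest deviation of miR-27a-3p (-1.34), miR-27b-3p (-1.25), miR-24-3p (-1.52) and miR-24-2-5p (-1.61). Without I16F, and with the libraries scaled and centred anew, r was 0.38 for miR-27a-3p, 0.34 for miR-24-3p, 0.12 for miR-27b-3p, 0.27 for miR-24-1-5p and -0.01 for miR-24-2-5p, while it was 0.51 for miR-23a-3p. On the deviations as first computed, leaving out I16F gave 0.47 for miR-27a-3p, 0.42 for miR-24-3p, 0.28 for miR-27b-3p and 0.09 for miR-24-2-5p. On those same deviations without I16F and G12F, the rats farthest from the median of miR-23b-3p, r lay between 0.07 (miR-24-2-5p) and 0.49 (miR-27a-3p). Values on the deviations as first computed keep the offset that the rats left out had put into their group means. When group means were left in, all 6 mates passed with 143 of 499 miRNAs, a relation that then holds housing and sex as well.

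**Figure D3:**
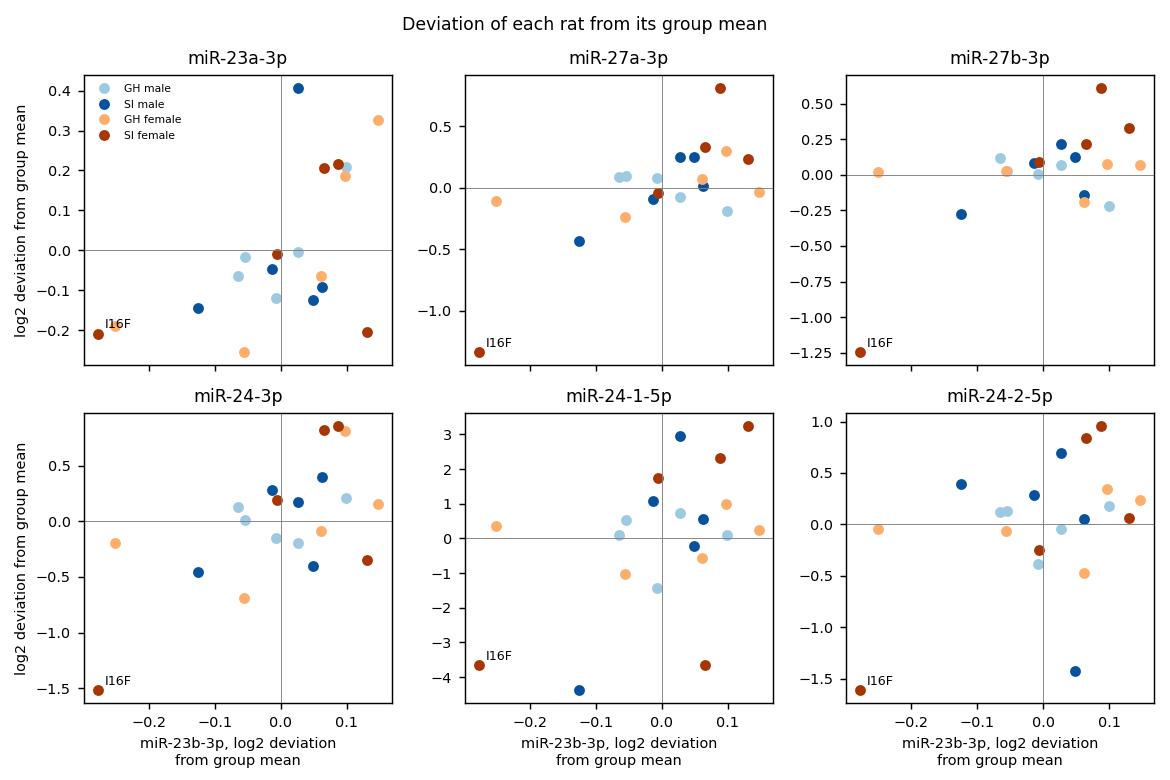
Deviation of each rat from its group mean (log2 normalized counts) for 6 miRNAs against that of miR-23b-3p, with 1 point per rat and colours for the 4 groups. I16F lies at the lower left of the miR-27 and miR-24 panels, and the vertical axes are wider than the horizontal axis, which covers -0.28 to 0.15.

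Pairs of the family other than those with miR-23b-3p are given as a description over the same 20 rats. The highest r was 0.93 for miR-27a-3p with miR-27b-3p, which share reads, as shown next. miR-24-3p had an r of 0.80 with miR-27a-3p, 0.75 with miR-24-2-5p and 0.67 with miR-23a-3p. With I16F left out of the same deviations these became 0.82, 0.62, 0.60 and 0.69. The deviations were not centred anew here, so the other SI females kept the offset that I16F had put into their mean. Correlations within groups without I16F can therefore not be read from these values.

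How far the paralogs can be told apart was read from the deposited assignment of each sequence. miR-27a-3p and miR-27b-3p differ only at position 19, and the reads that end there are printed because they decide how miR-27a-3p is counted. In the read sequences, with T for U, position 19 is in capitals.
Read assigned to both: ttcacagtggctaagttcT
Leading form of miR-27b-3p: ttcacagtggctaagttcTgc
Leading form of miR-27a-3p alone: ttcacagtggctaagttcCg
The read of 19 bases that both share matches miR-27b-3p without its last bases and was also listed as miR-27a-3p shortened to 18 bases with an added U. It had 62609 reads, which were 65.0% of all reads of miR-27a-3p but 12.9% of those of miR-27b-3p. Over the libraries it took between 54.8% and 75.7% of miR-27a-3p and between 9.98% and 17.1% of miR-27b-3p. In all, 74.8% of the 96249 reads of miR-27a-3p were also counted for miR-27b-3p. The members of the miR-23 pair were far better separated, with 3716 shared reads, 1.55% of miR-23a-3p and 1.05% of miR-23b-3p.

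The level of miR-27a-3p therefore depended on how shared reads were counted. The median ratio of miR-27a-3p to miR-27b-3p was 0.194 with all reads and 0.0561 with only the reads of a single miRNA. With only those reads the housing difference of miR-27a-3p averaged over the sexes was -0.97 (adjusted p = 0.022 by edgeR's quasi-likelihood test) and that of miR-27b-3p -0.51 (adjusted p = 0.041). With each shared read counted a single time for the pair, the merged miR-27-3p had -0.54 (adjusted p = 0.028) and the merged miR-23-3p -0.22 (adjusted p = 0.17). The fall of the miR-27 reads did not hinge on the shared read.

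**Figure D4:**
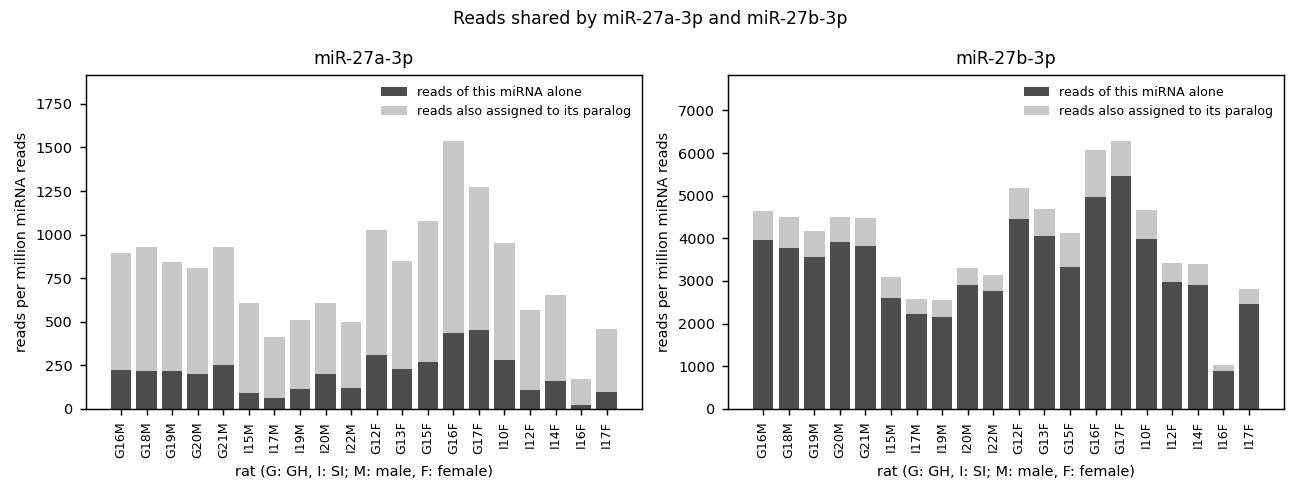
CPM (reads scaled to a common total of miRNA reads, without TMM) of miR-27a-3p and miR-27b-3p in each of the 20 rats, divided into reads assigned to that miRNA alone (dark) and reads also assigned to its paralog (light). The light part was between 64.2% and 87.3% of miR-27a-3p and between 12.01% and 19.6% of miR-27b-3p.

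Ratios of counts within a library need no scaling, and 6 of them were compared between SI and GH rats in each sex with an exact permutation test, two-sided, 5 rats against 5. After adjustment over the 12 comparisons 0 passed, and the smallest p such a test can give is 0.0079. Even at that p, 1 ratio alone could not have passed the adjustment, so a change in a single ratio could not be called. The lowest p was that of miR-27b-3p to miR-23b-3p in males, whose log2 ratio was 0.64 ± 0.19 (SD, n = 5) in GH rats and 0.19 ± 0.17 in SI rats, lower by a difference of -0.45 (exact p = 0.016, adjusted p = 0.14). In the other cluster miR-27a-3p to miR-23a-3p gave -1.20 ± 0.24 in GH males and -1.69 ± 0.25 in SI males, a difference of -0.49 (exact p = 0.024, adjusted p = 0.14). In females these ratios differed by -0.40 (exact p = 0.13) and -0.51 (exact p = 0.079), and without I16F by -0.16 and -0.23 (adjusted exact p = 0.48 and 0.40).

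The ratio of miR-23a-3p to miR-23b-3p lay between 0.504 and 0.853 in all libraries. On the log2 scale it differed by -0.10 in males (exact p = 0.41) and -0.18 in females (exact p = 0.15). The ratio of the miR-27 paralogs differed by -0.14 in males (exact p = 0.13) and -0.29 in females (exact p = 0.056). With only the reads of a single miRNA it differed by -0.42 in males (exact p = 0.13) and by -0.82 in females (exact p = 0.024, adjusted p = 0.095). On those reads miR-27a-3p to miR-23a-3p differed by -0.74 in males (exact p = 0.016, adjusted p = 0.095) and -1.01 in females (exact p = 0.040, adjusted p = 0.12). The ratio of miR-24-3p to the sum of its 5p strands differed by -0.08 in males (exact p = 0.83) and 0.02 in females (exact p = 0.96), with a median of 18.7 over all rats. The SD of this log2 ratio within groups was 0.21 to 0.74. miR-24-2-5p to miR-24-1-5p could not be compared closely, since its log2 ratio had an SD of up to 3.68 where miR-24-1-5p was at 0.

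The mates were also fitted relative to miR-23b-3p, with the libraries scaled by its count, taken as a fixed library size. The study chose miR-23b-3p for its steadiness in these same libraries. This fit is therefore not independent of the averaged comparison above. On that scale, where the median of all miRNAs was 0.14, the averaged housing difference was -1.05 for miR-24-3p (adjusted p = 0.0058 by edgeR's quasi-likelihood test), -0.94 for miR-24-2-5p (adjusted p = 0.018) and -0.59 for miR-27a-3p (adjusted p = 0.018). It was -0.39 for miR-27b-3p (adjusted p = 0.059) and -0.13 for miR-23a-3p (adjusted p = 0.42). So 3 of 6 mates fell relative to miR-23b-3p, where 17.6% of all miRNAs passed on this scale and 6.41% passed as lower, and miR-27b-3p, miR-23a-3p and miR-24-1-5p did not pass.

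The forms (isomiRs) in which each strand was read differed between the family's members. Reads of a single miRNA were sorted into exclusive classes, with a mismatch taken first, then a shifted 5′ end, then added bases, then a longer or shorter 3′ end. The leading forms of the miR-23 strands are printed because they differ beyond the 1 base of the reference, with bases past the reference end in capitals.
Leading form of miR-23a-3p: atcacattgccagggatttccA
Leading form of miR-23b-3p: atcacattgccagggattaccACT
For miR-23a-3p, 55.6% ± 5.70 (SD, n = 20) of reads were extended at the 3′ end to match the hairpin and 9.07% ± 1.45 carried an added U. For miR-23b-3p, 35.3% ± 2.29 were extended and 29.1% ± 3.25 carried an added U, the leading form among them with 25.5% of reads. That form is itself extended by AC before the added U, and a form of miR-23a-3p extended by A with an added U took 5.53%. Such forms were counted as added, so the extended shares of the 2 strands do not compare their whole extension.

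The other strands were read mainly at or short of the reference end. The reference form made up 53.1% ± 3.22 of miR-27b-3p, 41.8% ± 6.08 of miR-24-3p and 38.7% ± 12.9 of miR-24-2-5p (n = 19 libraries with at least 100 reads). Shortened forms made up 39.6% ± 6.04 of miR-24-3p and 54.2% ± 11.3 of miR-24-2-5p. Of the reads of miR-27a-3p alone, 48.6% ± 11.3 were shortened and 14.8% ± 8.12 carried an added A. Extension past the reference end was thus a feature of the miR-23 strands and, at 13.9% ± 1.58, of miR-27b-3p.

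**Figure D5:**
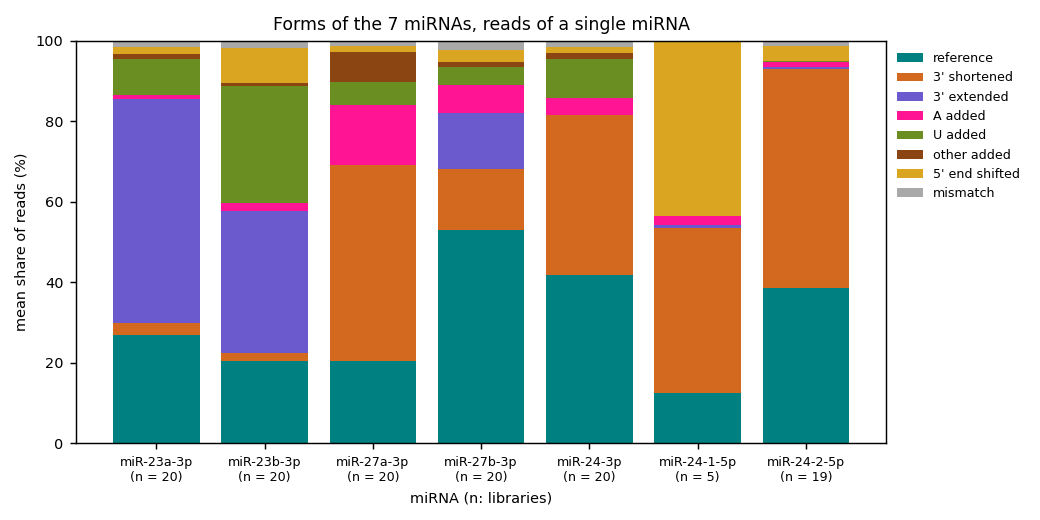
Mean share of reads (%) in 8 exclusive classes of forms for each miRNA, over the libraries with at least 100 reads of a single miRNA (n under each name). miR-23a-3p and miR-23b-3p show large extended shares (55.6% and 35.3%), which leave out extended forms with an added base. miR-23b-3p and miR-24-1-5p show the largest shares with a shifted 5′ end among the 7 miRNAs.

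A shifted 5′ end moves the seed, so these forms are printed with their own seed in capitals.
Late start of miR-23b-3p: tCACATTGccagggattaccact
Early start of miR-24-1-5p: gGTGCCTActgagctgatatca
The 5′ end was shifted in 9.07% ± 1.20 (SD, n = 20) of the reads of miR-23b-3p and in 2.27% ± 0.64 of those of miR-23a-3p, with no overlap between libraries (lowest 7.11% and highest 3.32%). Nearly all shifted reads of miR-23b-3p started 1 base late, 30013 reads in all. Of the 1318 reads of miR-24-1-5p, 522 (39.6%) started 1 base early. The share with any shift of the 5′ end lay between 22.6% and 62.6% in the 5 libraries with at least 100 reads of miR-24-1-5p. For miR-24-3p, miR-27a-3p and miR-27b-3p the means lay between 1.44% and 3.28%.

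At the level of single forms, 210 isomiRs of the 7 miRNAs were among the 10290 tested. By edgeR's quasi-likelihood test 0 of 210 passed in males, where 0.00972% of all isomiRs did, and 0 in females, where 0% did. At an unadjusted p under 0.05, in either direction, there were 31 of 210 in males, where 9.11% of all isomiRs were. In females there were 46 of 210, where 9.22% of all were. Of the 31 in males 29 were lower in SI rats, and all 46 in females were. The share of lower values among all isomiRs at that threshold was not counted. Forms shared by paralogs stand in the 210 under both names. Of the isomiRs to which DESeq2's Wald test gave an adjusted p, it called 7 of 45 of the family in males, where 7.24% of all 2100 were called, and 9 of 149 in females, where 1.35% of all 7479 were.

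The abundant forms of the miR-24 and miR-27 strands had negative values in both sexes. The reference form of miR-24-3p had a log2 fold change of -1.52 (SE 0.45, adjusted p = 0.28 by edgeR) in males and -1.61 (SE 0.45, adjusted p = 0.32) in females. Its forms shorter by 1 and 2 bases had -1.09 and -0.84 in males and -1.51 and -1.44 in females. The leading form of miR-24-2-5p had -1.04 in males and -1.49 in females, and the reference form of miR-27b-3p -0.63 and -0.79. The read shared by the miR-27 strands had -0.70 and -0.94. Each of these 6 forms had an unadjusted p under 0.05 in both sexes. Other forms as abundant did not: the form of miR-27b-3p shorter by 1 base had -0.66 in males (unadjusted p = 0.075) and -0.74 in females (0.047), and the reference form of miR-24-2-5p had -1.38 (0.096) and -1.46 (0.078).

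The leading form of miR-23a-3p, extended by the A of its hairpin, had -0.70 (SE 0.21, adjusted p = 0.28 by edgeR) in males, while its reference form had 0.13 (SE 0.23). In females the values were alike, -0.80 (SE 0.21) for the leading form and -0.69 (SE 0.23) for the reference form. The extended share of miR-23a-3p was 61.0% ± 4.79 (SD, n = 5) in GH males and 48.2% ± 3.92 in SI males, from 56.9% to 67.7% and from 44.1% to 54.7%, without overlap. In females it was 57.2% ± 1.27 and 56.1% ± 2.33, which overlapped. This share was singled out after its values were seen and was not tested. For miR-23b-3p the leading form had -0.14 (SE 0.17) in males and -0.43 (SE 0.17) in females.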

How the data were processed

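Libraries of small RNA were made from 215 ng of RNA of each of 20 rats, amplified over 22 PCR cycles. The authors removed adapters with cutadapt within bcbio-nextgen, collapsed identical reads and aligned them to rat miRBase hairpins with seqbuster, and the submitters' processing notes also name FastQC and STAR. The deposited values are raw counts of each distinct sequence with its assigned miRNA, and a sequence matching several miRNAs is listed under each. The lowest count listed is 2. Counts were summed per miRNA and library, and libraries held 3428930 to 11383055 miRNA reads, so counting error is small for all members but miR-24-1-5p.

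Groups were taken from the labels, and each library is a separate rat. A feature (miRNA or isomiR) was tested if 5 or more libraries had 10 or more counts of it. A model of the 4 groups was fitted to all 20 libraries with edgeR 4.0.16 (R 4.3.3, TMM, quasi-likelihood test), and p-values were adjusted by Benjamini-Hochberg over all features. Deviations from group means were correlated with 100000 permutations within groups, and log2 ratios (0.5 count added to each) were tested by exact permutation. Each test was tried on simulated data first.

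The text names all 7 members, the other strands of the clusters, the 3 non-members most correlated with miR-23b-3p, and isomiRs among the 3 most abundant of each member, and the forms with a shifted 5′ end were added after their values were seen. Marker lists held 20 miRNAs. Members and lists were chosen with earlier results of these data known. Alternatives were DESeq2 1.42.0 (Wald test or size factors alone), scaling by miR-23b-3p, other count filters, only the groups compared, only reads of a single miRNA, only reads without a mismatch, the I17 libraries exchanged, each rat left out, and the rat's number as a block. Merging paralogs was added after seeing the data. No genome sequence was used, and positions and mature sequences come from RefSeq (GRCr8). Labels number some rats alike in both housing groups (2 male and 3 female numbers) without stating that they are related.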

Additional observations from a re-analysis of the deposited data

Results flagged for a closer look

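Of the 52 groups of 5 rats examined for a rat far from the other 4, 7 held one, where chance gives about 1 in 20. Levels are log2 normalized counts. For miR-23a-3p, the SI male I20M had 13.88 where the other SI males had 13.33 to 13.42, and its log2 ratio of miR-23a-3p to miR-23b-3p was -0.23 against -0.78 to -0.63. For miR-27b-3p, the SI female I16F had 12.96 where the others had 14.29 to 14.82, and its log2 ratio of miR-27b-3p to miR-23b-3p was -0.75 against 0.32 to 0.74. For the same miRNA the GH female G15F had 14.7 where the others had 14.91 to 14.97. The GH female G17F had a log2 ratio of miR-27a-3p to miR-23a-3p of -1.47, where the others had -1.09 to -0.97. The SI male I17M had a log2 ratio of miR-24-2-5p to miR-24-1-5p of 10.2, where the others had 1.98 to 3.74, and miR-24-1-5p had no listed reads in that rat.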

How the results depend on the processing

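Averaged over the sexes, the number of members called was 4 and lay between 3 and 5 with each rat left out, where 58 to 117 miRNAs were called in all. In males the 0 members called became 1 with DESeq2's Wald test and 3 when only males were fitted, and 0 to 3 with a rat left out (7 to 73 miRNAs in all). In females the 0 became 1 when scaled by miR-23b-3p, 4 with DESeq2, 1 with the I17 libraries exchanged, and 0 to 3 with a rat left out (1 to 63 in all). Scaling by miR-23b-3p moved the median of all miRNAs averaged over the sexes from -0.005 to 0.14 and the number called in females from 2 to 35. Over all miRNAs DESeq2 called 60 in males and 67 in females, against 20 and 2, and fitting males alone called 84. The correlation with miR-23b-3p was called for 6 mates with group means kept, against 0. For isomiRs DESeq2 called 7 in males and 9 in females, against 0, and 0 to 1 were called in males with a rat left out.

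The following values, none of which was called, changed sign. With the replicate block the housing difference in males was 0.0064 for miR-23a-3p and 0.030 for miR-23b-3p. The same rats without the block gave 0.029 for both and 0.12 for miR-24-1-5p. The block also gave log2 ratio differences of 0.013 (miR-27a-3p to miR-27b-3p, males), -0.30 (miR-24-2-5p to miR-24-1-5p, males) and -0.0531 (miR-24-3p to its 5p strands, females). Samples with the same number did not deviate together (correlations -0.30 to 0.09), and 0 members were called with or without the block in these rats. With I17 exchanged the ratios were -0.50 (miR-24-2-5p to miR-24-1-5p, males), 0.20 and -0.26 (miR-24-3p to its 5p strands, males and females). Scaled by miR-23b-3p, miR-27b-3p had an interaction of 0.12 and a sex difference of -0.016.

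With each rat left out, miR-23b-3p in males ran from -0.092 to 0.0051, and the interaction from -0.41 to 0.031 for miR-27a-3p, -0.19 to 0.16 for miR-27b-3p and -1.29 to 0.77 for miR-24-1-5p. The correlation of miR-24-2-5p ran from -0.0053 to 0.57. The ratio of miR-24-2-5p to miR-24-1-5p in males ran from -0.43 to 1.62, and that of miR-24-3p to its 5p strands from -0.34 to 0.094 in males and -0.12 to 0.19 in females. The cause of these changes was not tested. Depth limited only miR-24-1-5p and the minor 5p strands.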
